A study of Mus musculus with 4 samples.

Results

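The olfactory epithelium of the fetal mouse head was described from the 200 Visium spots with the highest joint level of Gfy, Ugt2a1 and Omp. Visium reads RNA from a tissue section placed on barcoded spots, with unique molecular identifiers (UMIs) to count captured molecules. A spot covers a patch of tissue, often with cells of more than 1 type. All 5901 spots over tissue with at least 2000 UMIs were ranked by the mean over these 3 genes of log2(1 + UMIs per 10000), and the 200 highest, pooled over all areas, were taken as olfactory epithelium spots. The other 5701 spots are called other spots. The sections were coronal, through the middle of the palate, from formalin-fixed, paraffin-embedded heads of wild-type C57BL/6J embryos at E14.5 and E15.5. Each stage had 2 capture areas, each a single library, one holding replicate 1 and the other replicates 2, 3 and 4 as 3 sections. No genotype or treatment was compared, and the embryo behind each section is named only by its replicate number. Which section is replicate 2, 3 or 4 is not given in the labels, so these sections are called A, B and C in order of increasing median UMIs per spot.

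The olfactory epithelium lines the upper and rear part of the nasal cavity. Its sensory neurons each carry cilia with odorant receptors, G protein-coupled receptors that act through a cyclic AMP cascade on a cyclic nucleotide-gated channel, and a mature sensory neuron expresses a single odorant receptor gene. New neurons arise through life from basal progenitors that pass through Neurog1 and Neurod1 stages and then an immature stage marked by Gap43 and Gng8. Sustentacular cells span the epithelium, support the neurons and express many enzymes that modify foreign compounds, and Bowman glands secrete mucus. Omp, the olfactory marker protein, is the classical marker of mature sensory neurons. Gfy, golgi-associated olfactory signaling regulator, acts in the same cells, and Ugt2a1 encodes an olfactory UDP glucuronosyltransferase.

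The E14.5 replicate 1 library stood apart in depth. Its median was 6752 UMIs per tissue spot, against 45059 to 64051 in the other 3 areas, and 247 of its 1106 tissue spots fell under 2000 UMIs. Its olfactory epithelium spots summed to 599084 UMIs, while those of the other areas summed to between 2545349 and 3921209. Intervals of 95% are exact, Poisson for sums and binomial for shares, and reflect counting error alone. Since spots of an area share a library, areas are the replicates, with 2 per stage, and whether they came from separate litters is not stated. Fewer cells of a type in a spot and less RNA per cell cannot be told apart.

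Values for the areas are given below in the order E14.5 replicate 1, E14.5 replicates 2, 3 and 4, E15.5 replicate 1, and E15.5 replicates 2, 3 and 4. The areas held 31, 72, 27 and 70 olfactory epithelium spots. These were 3.61%, 3.42%, 2.73% and 3.59% of the spots ranked, with 95% intervals of 2.46 to 5.08% in the first and 1.81 to 3.95% in the third, and the intervals of all 4 areas overlapped. By stage, 103 of 2963 spots at E14.5 and 97 of 2938 at E15.5 were members. With every spot thinned to 2000 UMIs before ranking, the areas held 61, 77, 13 and 49 of the 200. So few UMIs allow few scores, and spots with equal scores were taken in the order of the areas. These counts are thus no comparison of shares at equal depth. In the ranking at full depth, the sections differed more than the stages. Section A of E14.5 had 39 of 508 spots (7.68%), section B 25 of 910 (2.75%) and section C 8 of 672 (1.19%). At E15.5, section B had 49 of 575 (8.52%), section A 21 of 784 (2.68%) and section C 0 of 526, which allows a share of up to 0.570% if 3 spots are taken as the limit. The highest spot scored 2.75, the last one included 1.0305 and the first one left out 1.0228, and 58.9% of the other spots scored 0.

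The olfactory epithelium spots lay together in the tissue. Of all positions on the array next to an olfactory epithelium spot and holding a ranked spot, 68.8% held another olfactory epithelium spot, with 67.7%, 65.6%, 70.0% and 72.2% in the areas (mean 68.9% ± 2.85 SD, n = 4). Next to other spots the share was between 0.904% and 1.39%. The spots formed 2, 5, 1 and 4 connected pieces in the areas, and 4 spots in all touched no other member. Position was no part of the rule. When every spot was first thinned to 2000 UMIs, 120 of the 200 spots were chosen again and the share of member neighbours was 34.9%. Tied spots in that ranking were taken in the order of the areas, so both values depend partly on that order.

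**Figure D1:**
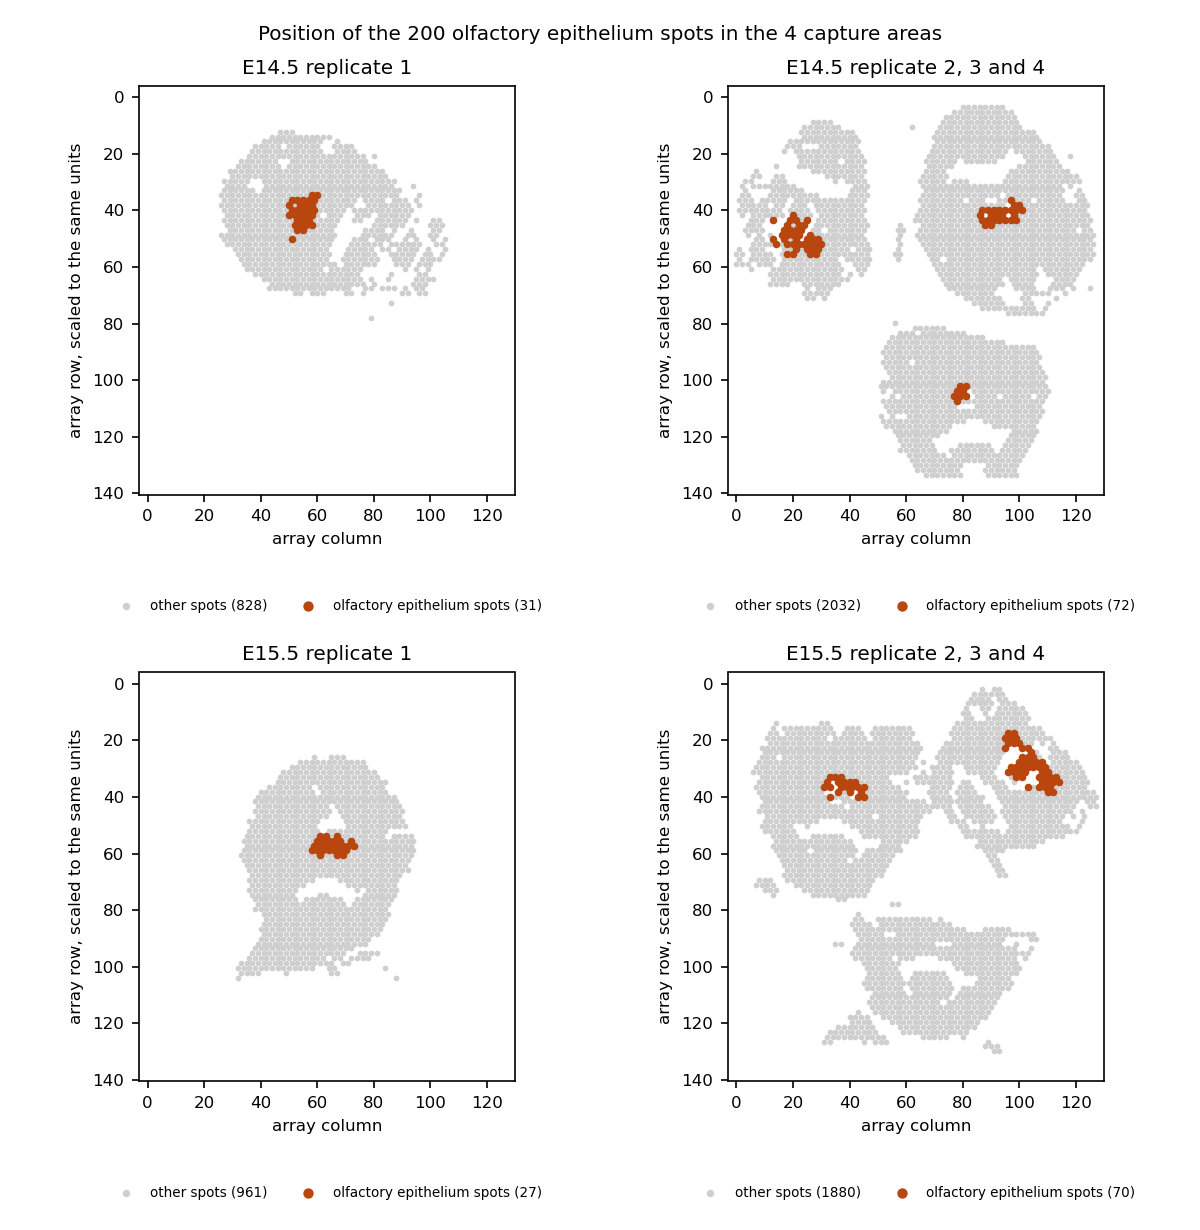
Array positions of the ranked spots in the 4 capture areas, in array columns, with rows scaled to the same units. Orange points are the 200 olfactory epithelium spots and grey points the other 5701. The 31, 72, 27 and 70 olfactory epithelium spots form compact patches inside the sections, and 1 section of the E15.5 replicate 2, 3 and 4 area holds none.

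The 3 genes of the rule are given as a description, since they chose the spots. Levels are UMIs summed over the spots of an area and scaled by the total UMIs of those spots (CPM). Gfy (chromosome 7, 45176349-45179569, minus strand, GRCm38) had 317, 398, 421 and 536 CPM in olfactory epithelium spots and 11, 11.2, 10.1 and 12.1 CPM in other spots. Ugt2a1 (chromosome 5, 87459490-87490871, minus strand) had 454, 276, 407 and 334 CPM against 10.7, 6.40, 11.9 and 5.56 CPM. Omp (chromosome 7, 98143359-98145502, minus strand) had 55.1, 49.7, 61.3 and 56.6 CPM against 5.08, 5.04, 6.57 and 3.89 CPM. Ugt2a1 UMIs were found in all 200 spots, Gfy UMIs in all but 6, and Omp UMIs in 21 of 31, 57 of 72, 26 of 27 and 56 of 70 spots. The rule thus rested mainly on Gfy and Ugt2a1, and leaving out Omp from the score kept 187 of the 200 spots.

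The transcriptome of the spots was compared with that of the other spots of the same area. Because the rule picked the spots with values of the same libraries, no test was made, and a gene is called higher or lower here where its CPM differed over 2-fold in the same direction in all 4 areas. Among 15208 genes with at least 50 UMIs, 568 were higher in olfactory epithelium spots (3.73%) and 654 were lower (4.30%). The median gene had a fold of 1.0. Without each area in turn, the shallow E14.5 replicate 1 area first, 700, 633, 587 and 640 genes were higher in the other 3 areas. Those lower numbered 925, 905, 750 and 909. Fewer areas then had to agree, so these counts could not fall.

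The 25 genes other than those of the rule with the largest lowest fold over the areas included S100z, Olfr94, Acsm4, Ctf2, Rtp2, Olfr15, Cdh26, Atp6v1g3, Tmprss6, Sult1e1, Aox2, Atp6v1c2, Uncx, A2ml1, D930020B18Rik, Fmo6, Gng13, Tmem211, Pcdhb1, Olfr281, Casr, Mef2b, Ell3 and Inmt. They covered receptors and their transport, signalling, proton pumping and compound-modifying enzymes. S100z, a calcium-binding protein of the S100 family, had 70.1, 49.2, 61.3 and 59.9 CPM in the spots and 1.85, 1.38, 1.79 and 1.31 CPM elsewhere. Its lowest fold, 34.2, was the largest of any gene outside the rule.

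Acsm4, an acyl-CoA synthetase known from the dorsal zone of the olfactory epithelium, had 132, 86.5, 209 and 96.3 CPM against 4.32, 2.43, 5.60 and 2.15 CPM. Rtp2, which helps carry odorant receptors to the cell surface, had 103, 51.3, 95.5 and 93.4 CPM against 3.23, 1.55, 3.64 and 1.82 CPM. Uncx, a homeodomain transcription factor, had 132, 166, 213 and 141 CPM against 6.38, 6.08, 8.33 and 3.36 CPM. All 3 genes were at least 20.7-fold higher in the spots of every area.

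A second set of these genes encodes enzymes. Aox2, an aldehyde oxidase, had 135, 161, 199 and 183 CPM in the spots against 6.38, 5.01, 8.47 and 5.06 CPM in other spots. Sult1e1, an estrogen sulfotransferase, Fmo6, of the flavin monooxygenase family, and Inmt, an indolethylamine methyltransferase, had lowest folds of 21.5, 19.2 and 17.1. Atp6v1g3 and Atp6v1c2, subunits of the proton pump V-ATPase, had lowest folds of 23.1 and 20.7. Casr, the calcium-sensing receptor, had 36.7, 36.7, 33.4 and 27.9 CPM in the spots, all above its 1.21 to 1.82 CPM in other spots. A2ml1, a protease inhibitor, had 6 UMIs in the spots of E14.5 replicate 1 and none in the other spots there. Its fold in that area was 48.6, taken against 3 counts over those other spots and uncertain with so few UMIs. In the other areas it was between 20.3-fold and 54.3-fold higher.

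**Figure D2:**
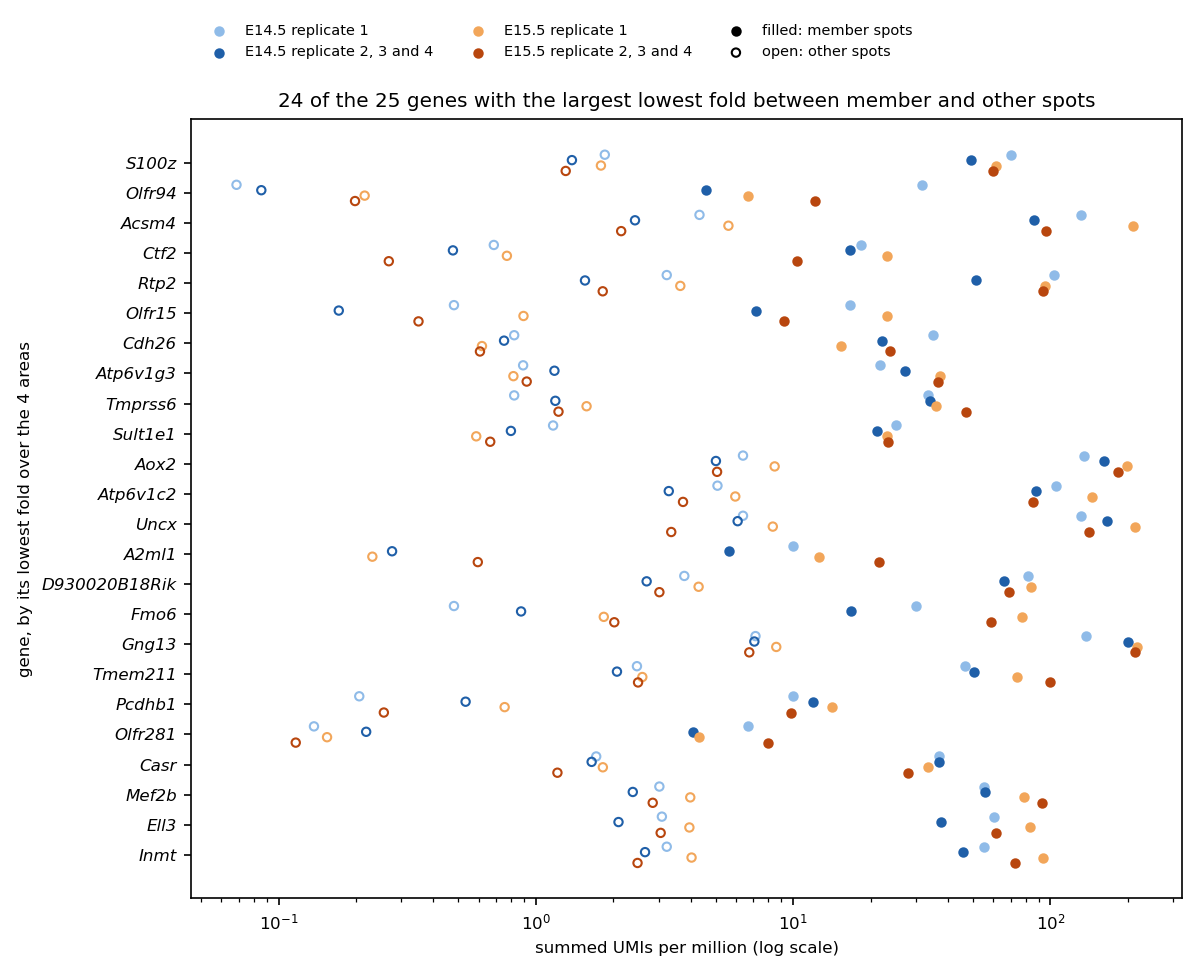
CPM (log scale) of 24 of the 25 genes with the largest lowest fold, with filled points for olfactory epithelium spots and open points for other spots, 1 pair per area. Filled and open points do not overlap for any of the 24 genes, S100z running from 49.2 to 70.1 CPM in the spots and from 1.31 to 1.85 CPM elsewhere, and the open point of A2ml1 at 0 in E14.5 replicate 1 is not drawn.

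Promoter sequence is shown for Gfy and 2 of these genes, whose RefSeq and GENCODE starts lie close together, because the Ebf transcription factors, themselves higher in the spots, are known to bind sites with the letters CCCNNGGG. Only windows that hold these letters were kept for display, so a match in each sequence shown was fixed in advance. Windows of 300 bases, 250 before and 50 after the start of a gene, were taken from RefSeq on GRCm38.p6, in which 21 of the 25 genes had a window and Omp had none. Capitals mark CCCNNGGG, searched with overlaps; as the motif reads the same on both strands, a search of 1 strand covers both.
Gfy, chr7:45179548-45179847, minus strand: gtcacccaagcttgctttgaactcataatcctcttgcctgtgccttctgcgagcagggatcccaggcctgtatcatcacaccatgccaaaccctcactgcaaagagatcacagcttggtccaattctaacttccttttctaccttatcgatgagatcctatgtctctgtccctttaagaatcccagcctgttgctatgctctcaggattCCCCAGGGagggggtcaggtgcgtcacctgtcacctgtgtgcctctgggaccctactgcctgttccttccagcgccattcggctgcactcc
Gng13, chr17:25716922-25717221, plus strand: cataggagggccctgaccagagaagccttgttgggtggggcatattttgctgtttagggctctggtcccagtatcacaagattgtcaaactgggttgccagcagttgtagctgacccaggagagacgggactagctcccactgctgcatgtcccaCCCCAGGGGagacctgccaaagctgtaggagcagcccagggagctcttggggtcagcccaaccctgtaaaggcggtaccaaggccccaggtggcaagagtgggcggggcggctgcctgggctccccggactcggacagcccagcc
Acsm4, chr7:119689776-119690075, plus strand: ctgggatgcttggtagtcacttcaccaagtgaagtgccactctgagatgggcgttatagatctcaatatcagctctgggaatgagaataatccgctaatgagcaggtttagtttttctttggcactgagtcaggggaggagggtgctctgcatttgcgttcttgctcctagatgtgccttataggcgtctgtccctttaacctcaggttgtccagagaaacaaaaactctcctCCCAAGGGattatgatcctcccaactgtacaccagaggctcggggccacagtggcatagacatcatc
The match lay 41 bases before the start in Gfy, and 2 overlapping matches lay 95 and 94 bases before the start in Gng13. Of the 22 windows of the 25 genes, 4 held the motif (18.2%), which was the share in windows of genes that were neither higher nor lower (18.3%). Among windows of the 568 higher genes 22.2% held it, and among all RefSeq windows 13.7%. A match in a window is a description of its letters and not a binding site, and some RefSeq starts lie inside the longer GENCODE gene, so that their windows are not at its start.

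Genes of the odorant response and the mature sensory neuron were the first list examined. Of 18 such genes 14 had at least 50 UMIs, and 6 of these were higher in the spots of every area, none lower, against 3.73% of all genes higher. Gng13, the G protein gamma subunit of the cascade, had 137, 201, 217 and 212 CPM against 7.14, 7.07, 8.60 and 6.75 CPM. Cnga2, the main subunit of the olfactory channel, had 5.01, 7.65, 11.4 and 10.7 CPM against 0.305 to 0.549 CPM. Stoml3, a stomatin-like protein of sensory cilia, had 6.68, 14, 22.8 and 20.2 CPM against 0.480, 0.457, 0.756 and 0.513 CPM. Calb2, calretinin, had 179, 243, 286 and 273 CPM against 30.7, 28.8, 31.5 and 16.6 CPM.

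Several core members of the cascade were not higher by this measure. Adcy3, the adenylyl cyclase of the cascade, had 66.8, 55.6, 68.4 and 59.3 CPM in the spots and 36.9, 42.6, 43.8 and 42.2 CPM elsewhere, folds of 1.31 to 1.81. Gnal, the olfactory G protein alpha subunit, had 15 UMIs in all the spots together and folds of 0.724 to 1.82. The channel subunit Cnga4 and the chloride channel Ano2 had 10 and 7 UMIs there, and S100a5, a marker of mature neurons, had 16 and none of them in E14.5 replicate 1. Folds of genes with so few UMIs are uncertain, and small differences in them could not be seen at this depth.

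The odorant receptor family was measured in the spots as a whole. Of 970 Olfr genes in the files, 478 had at least 1 UMI in the olfactory epithelium spots, with 2525 UMIs in all, and 42 were found in the spots of every area. The family had 317 CPM (95% interval 274 to 366), 172 (159 to 186), 249 (230 to 269) and 304 (286 to 323) in the spots and 41.0, 34.7, 20.3 and 22.9 CPM in other spots, folds of 7.74, 4.96, 12.3 and 13.3. After thinning each spot to 2000 UMIs, 36.5% of the olfactory epithelium spots and 7.19% of the other spots held an Olfr UMI. Without thinning these shares were 97.5% and 60.2%, at median depths of 15331 to 84979 UMIs in the olfactory epithelium spots of the areas. The unthinned shares are thus not at equal depth. The other spots are not a measure of stray signal alone, since they include those beside the olfactory epithelium spots. The family had 108, 71.2, 67.5 and 95.2 CPM 1 array step from the nearest olfactory epithelium spot. At 4 or more steps it had 37.3, 32.2, 17.3 and 19.8 CPM.

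No single receptor carried the family. The 5 receptors with most UMIs held 14.6% of the family's UMIs in the spots and the first 50 held 48.8%, while 175 receptors had 1 UMI. Olfr15 (chromosome 16, 3830878-3844747, plus strand) had 10, 28, 59 and 31 UMIs in the spots of the areas, spread over 67 spots. Olfr94 (chromosome 17, 37196425-37200994, minus strand) had 19, 18, 17 and 41 UMIs over 59 spots, and Olfr281 had 4, 16, 11 and 27 over 34 spots. Olfr544 had 0, 15, 6 and 23 UMIs and Olfr71 had 1, 9, 12 and 22. For Olfr94 69.9% of all its UMIs in ranked spots lay in the olfactory epithelium spots, which held 3.61% or less of each area's spots. Every one of the 65 receptors with 10 or more UMIs in the spots was over 2-fold higher there in pooled CPM, between 5.25-fold and 86.3-fold, with a median of 28.5-fold. These 65 were picked by their UMIs in the spots, so the range is no test. Near-identical receptor genes can share probes or reads, and single receptors are uncertain to that extent.

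**Figure D3:**
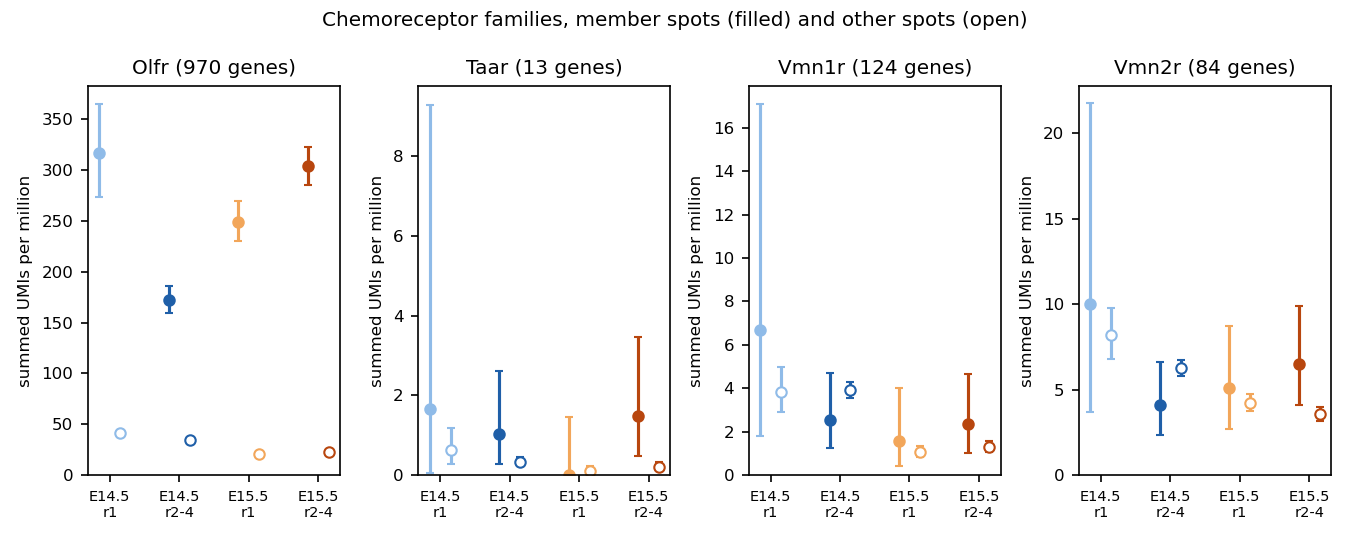
CPM of 4 chemoreceptor families in olfactory epithelium spots (filled) and other spots (open) of each area, bars giving exact 95% Poisson intervals and r1 and r2-4 naming the replicates. Olfr lies at 172 to 317 CPM in the spots and 20.3 to 41.0 CPM elsewhere, while Vmn1r and Vmn2r lie between 1.57 and 10.0 CPM in the spots and between 1.05 and 8.17 CPM elsewhere.

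Other chemoreceptors were scarce in the spots. The trace amine-associated receptors (Taar), a small family of the main olfactory epithelium, had 10 UMIs in all the spots, 6 of them of Taar6, or 0.958 CPM against 0.252 CPM in other spots. The vomeronasal receptors, which belong to the vomeronasal organ, stood at 2.49 against 2.38 CPM for Vmn1r and 5.46 against 5.01 CPM for Vmn2r. Of the 7 vomeronasal genes with enough UMIs, none was higher and none lower in every area. Of the 10 genes written for this list 8 were in the data, and Trpc2 was not among them.

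Transcription factors of the olfactory lineage were higher in part. Of 24 with enough UMIs, 12 were higher in every area and none was lower. Ebf2, of the family of olfactory and early B-cell factors, had 631, 537, 559 and 450 CPM against 56.1, 55.7, 52.2 and 59.4 CPM, and Ebf1 and Ebf3 were also higher, with lowest folds of 2.08 and 3.52. Neurog1, the determination factor of sensory neuron precursors, had 144, 207, 208 and 121 CPM against 19.4, 10.5, 12.8 and 3.31 CPM. Lhx2 had 484, 649, 627 and 604 CPM against 221, 158, 116 and 63.3 CPM. Fezf1, which is needed for olfactory neuron identity, had 25, 21.4, 31.0 and 23.7 CPM against 1.65, 1.29, 1.96 and 0.781 CPM. Hes6, Neurod1, Emx2, Sp8 and Tshz1 were among the others of the 12.

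Pax6, a factor that the brain and eye also use, was not higher in every area, with folds of 0.438, 1.56, 0.844 and 1.90.

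Of the 18 immature neuron genes, 5 were higher in every area, namely Gng8, Nhlh1, Nhlh2, Atf5 and Trib3, and none was lower. Gng8, the G protein gamma subunit of immature sensory neurons, had 124, 116, 160 and 138 CPM against 13.2, 16.7, 18.7 and 16.3 CPM. Nhlh1, a bHLH factor of newly born neurons, had 247, 286, 334 and 246 CPM against 41.0, 22.0, 32.3 and 8.78 CPM. Atf5, which acts downstream of the stress pathway that follows receptor choice, had 294, 254, 467 and 324 CPM against 51.8, 35.7, 67.2 and 46.3 CPM.

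Gap43 and Stmn2, genes of growing neurons in general, were not higher in every area. Gap43, a growth cone protein, had 689, 781, 792 and 719 CPM in the spots and 781, 769, 589 and 397 CPM elsewhere, so its fold ran from 0.883 to 1.81. Stmn2 had 956, 1372, 1273 and 1319 CPM against 1428, 1175, 899 and 527 CPM. The cortical neuron gene Neurod6 stood at 348, 106, 219 and 17.2 CPM in the other spots, and Neurod2 at 566, 145, 363 and 35.7 CPM. The areas' other spots thus held unequal levels of brain genes, and the part of these in the folds was not tested.

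Basal and cycling genes were not higher in the spots. Of 11 with enough UMIs, 3 were lower in every area, namely Krt14, Krt15 and Cxcl14, and none was higher. Krt5, a keratin of the horizontal basal cells of the mature epithelium and of skin, had 48.4, 39.8, 16.5 and 13.6 CPM in the spots against 84.1, 191, 220 and 231 CPM elsewhere. Mki67, a marker of cycling cells, had 322, 437, 411 and 388 CPM against 312, 354, 343 and 331 CPM, with folds of 1.03 to 1.24. Kit, a marker of globose basal cells, had folds of 1.15, 1.67, 2.0 and 1.82.

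Supporting cells were seen through 8 genes with enough UMIs, of which Ermn, Sec14l3, Cbr2, Krt8 and Muc2 were higher in every area and none was lower. Ermn, an ermin gene found in sustentacular cells, had 33.4, 51.0, 29.1 and 27.9 CPM against 2.95, 3.13, 1.42 and 1.49 CPM. Krt8, a keratin of simple epithelia, had 108, 115, 70.3 and 81.5 CPM against 11.7, 15.8, 11.8 and 15.7 CPM. Cyp2g1, Cyp2a5 and Ugt2a2, enzymes of the mature sustentacular cell, were not analysed here.

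Enzymes that modify foreign compounds were higher in 5 of 17 cases and lower in none. Gstm1, a glutathione transferase, had 621, 864, 908 and 578 CPM in the spots against 63.6, 52.6, 66.7 and 43.7 CPM. Ephx1, an epoxide hydrolase, had 71.8, 118, 133 and 131 CPM against 7.89, 13.0, 13.1 and 16.1 CPM. Fmo2, Gstm2 and Gsta4 were the other three, while Aldh3a1 had no UMI in the spots. Of the Bowman gland genes, Aqp5, a water channel of glands, had 68 UMIs in the spots and folds of 8.11 to 16.7, and it was the one of 5 that was higher in every area. Of the 15 gland genes, 6 had no UMI in the spots, among them Obp1a and Obp2a.

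Microvillous and tuft cell genes were mixed. Coch was higher in every area and Pou2f3, the tuft cell factor, lower, with 3.34, 4.59, 4.71 and 5.33 CPM in the spots against 7.82, 11.6, 22.6 and 18.1 CPM. Foxi1, the ionocyte factor, had 27 UMIs in the spots, none of them in E14.5 replicate 1, and folds of 11.4 to 42.4 in the other areas.

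Markers of other tissues were read to see what else the spots held. All 6 muscle genes and 6 of 8 bone genes were lower in every area, as were 5 of 6 epidermis genes and 5 of 8 retina and lens genes. In muscle, Acta1 had 55.1, 83.1, 18.1 and 45.9 CPM in the spots against 304, 742, 1026 and 1073 CPM. None of 8 fibroblast, 7 endothelium and blood, and 7 macrophage genes was higher, and Hbb-bs, a globin of red cells, had 2073, 2649.7, 2274 and 2674 CPM in the spots against 2360.1, 3454, 4317 and 3049 CPM.

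Cartilage, multiciliated cell and peripheral ganglion genes, summed by list, stood above the other spots in all 4 areas. The multiciliated sum was 3.78, 1.86, 2.17 and 1.54 times that of other spots, and Rsph1, Dynlrb2 and Dnah5, genes of motile cilia, were the 3 of 12 higher in every area. Col2a1, the main cartilage collagen, had 3644, 6684, 3733 and 6688 CPM in the spots against 1453, 2219.9, 1797 and 2975 CPM, and Cnmd, chondromodulin, was also higher in every area. The other 6 cartilage genes had a fold under 2 in at least 1 area. The sum of the 8 genes was 2.40, 2.77, 1.91 and 2.09 times that of other spots. Levels differed widely between single spots. The summed list ran from 8.06 to 493 UMIs per 10000 over the 200 spots, and it lay above the median of other spots in 31 of 31, 72 of 72, 25 of 27 and 68 of 70 of them.

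Of 6 peripheral ganglion genes with enough UMIs, 2 were higher and 2 lower in every area, and their sum was 1.60, 1.61, 2.08 and 1.63 times that of other spots. Prph, peripherin, an intermediate filament of peripheral axons, had 142, 155, 169 and 124 CPM against 15.4, 26.8, 14.9 and 43.4 CPM, and Scn9a, a sodium channel, was higher by 3.69-fold to 9.30-fold. Pou4f1, of ganglion neurons themselves, was lower in every area, with 16 UMIs in the spots. None of 12 ensheathing and Schwann cell genes was higher or lower in every area, although their sum was 1.17, 1.34, 1.22 and 1.49 times that of other spots. Of 20 axon guidance genes, Bmpr1b and Cntn4 were higher in every area. Cdhr1, a cadherin, was the one of 11 forebrain and bulb genes that was higher, with 3.94-fold to 5.93-fold.

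**Figure D4:**
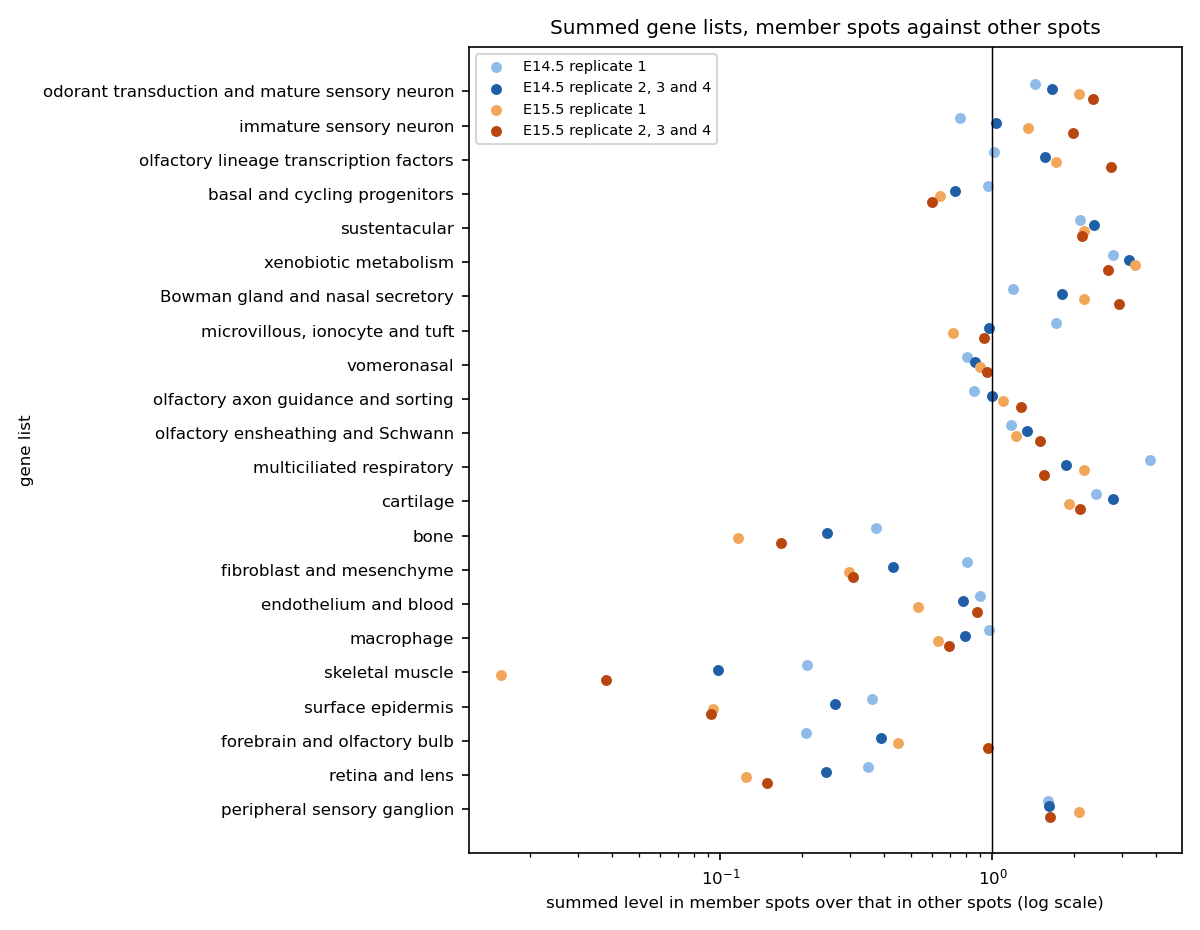
Summed CPM of each gene list in olfactory epithelium spots over that in other spots (log scale), 1 point per area, with a line at equal levels. The sustentacular, xenobiotic, multiciliated and cartilage lists lie right of the line in all 4 areas, muscle, epidermis, bone, and retina and lens lie left of it, and the 3 neuron lists run from between 0.760 and 1.43 in E14.5 replicate 1 to between 1.98 and 2.73 in the E15.5 replicate 2, 3 and 4 area.

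The change with distance from the spots showed how sharply each signal was bounded. Distance is the number of array steps to the nearest olfactory epithelium spot, spots of all sections of an area included. Gng13 was at 137, 201, 217 and 212 CPM in the spots, at 64.1, 67.9, 83.7 and 71.8 CPM 1 step away and at 4.14, 3.18, 4.44 and 4.17 CPM 4 or more steps away. The Olfr family was at 108, 71.2, 67.5 and 95.2 CPM 1 step away and 37.3, 32.2, 17.3 and 19.8 CPM at 4 or more. Neurog1 at 1 step was at 81.0, 85.8, 74.6 and 50.2 CPM. Gstm1 was wider than these, with 634, 443, 486 and 411 CPM at 1 step, in E14.5 replicate 1 a level as high as in the spots themselves.

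Other lists were highest beside the spots and not in them. The cartilage sum was at 5457, 8835, 4857 and 9898 CPM in the spots and at 11188, 16515, 18761 and 16707 CPM 1 step away, and at 4 or more steps it was at 1420.02, 2116, 1559.7 and 3858 CPM. The list of multiciliated cells, which line the respiratory part of the nose, was at 115, 173, 105 and 121 CPM in the spots. It was at 392, 242 and 215 CPM at 1 step and 321, 425 and 351 CPM at 2 steps in the last 3 areas, but in E14.5 replicate 1 at 111 and 57.8 CPM. Foxj1, the factor of motile cilia, followed it with 18.2, 41.2 and 30.4 CPM at 2 steps in those 3 areas against 7.65, 5.89 and 8.59 CPM in the spots. The fibroblast sum was lowest in the spots of the last 3 areas and was highest at 4 or more steps in all 4. As the steps start from spots chosen for the rule genes, these profiles are descriptions.

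**Figure D5:**
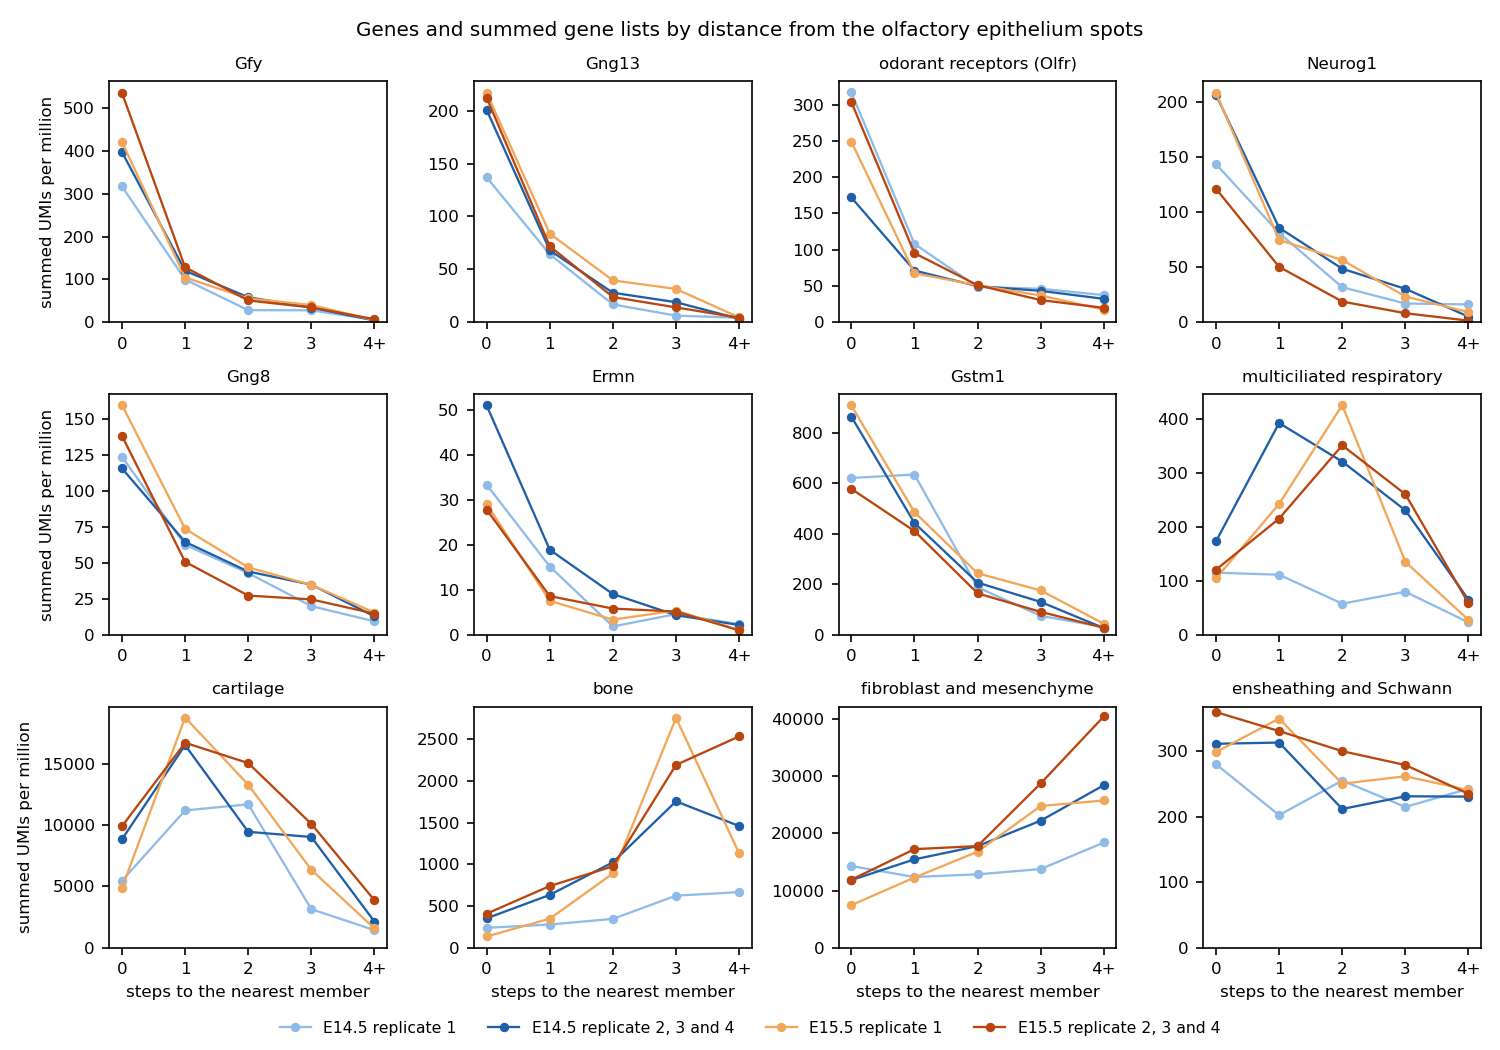
CPM of 12 genes or summed lists by steps to the nearest olfactory epithelium spot (0 is the spots themselves, 4+ is 4 or more), 1 line per area. Gfy, Gng13, Olfr, Neurog1, Gng8 and Ermn fall from step 0 to step 1 in every area, the cartilage list peaks at 1 or 2 steps, and the multiciliated list peaks at 1 or 2 steps in all areas but E14.5 replicate 1.

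The spots also varied among themselves. Correlations are Spearman's, across the spots of an area (n = 31, 72, 27 and 70), which share a library and a total count, and are given without a test. Gng13 and the Olfr sum had correlations of 0.21, 0.56, 0.64 and 0.49, and Gng8 and the Olfr sum 0.13, 0.38, 0.71 and 0.53. Neurog1 and Nhlh1, successive factors of the lineage, had 0.49, 0.37, 0.39 and 0.61. Ermn, of sustentacular cells, and Gng13, of neurons, had 0.42, 0.29, 0.54 and 0.35. The fibroblast sum and Gng13 had −0.43, −0.45, −0.68 and −0.64. Acsm4 and the Olfr sum had 0.51, 0.49, 0.32 and 0.23, and Neurog1 and the Olfr sum 0.23, 0.18, 0.25 and 0.41. The median spot of the shallow E14.5 replicate 1 area held 5 Olfr UMIs.

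Sections also differed in single genes. Acsm4 was at 132 CPM in E14.5 replicate 1 and at 146, 73.8 and 49.8 CPM in sections A, B and C of E14.5, and at 209, 93.7 and 96.9 CPM in E15.5 replicate 1 and sections A and B of E15.5. Fmo6 was at 30.0, 50.5, 7.19 and 2.31 CPM in the E14.5 sections and at 77.8, 22.1 and 66.7 CPM in those of E15.5. The Olfr sum was at 317, 286, 133 and 138 CPM and at 249, 233 and 319 CPM. Section C of E14.5 had 8 spots.

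The stages were compared over the olfactory epithelium spots by summing UMIs per area, 2 areas against 2, with edgeR's quasi-likelihood test over 12152 genes. No gene passed an adjusted p of 0.1 (0% of the genes tested), 290 genes had an unadjusted p under 0.05 (2.39%), and DESeq2 called 1 gene. Leaving out an area gave 23 calls without E14.5 replicate 1, 10 without E14.5 replicates 2, 3 and 4, 8 without E15.5 replicate 1 and 30 without E15.5 replicates 2, 3 and 4, with the lone area of a stage assumed to vary like the others. The replicate 1 areas of both stages were processed with Space Ranger 1.3.1 and the others with 2.0.0, and with the replicate number as a block 18 genes passed, 4 higher and 14 lower at E15.5. For 1770 genes (14.6%) the 2 values at E15.5 exceeded the 2 at E14.5, and for 1634 (13.4%) they were lower. A single value compared 2 against 2 cannot reach a p under 0.05 in an exact permutation test.

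No marker of the epithelium passed the stage test, although Gng13 had both E15.5 values above those of E14.5. The log2 difference, E15.5 minus E14.5, was 0.37 ± 0.25 (SE) for Gfy, 0.01 ± 0.27 for Ugt2a1 and 0.14 ± 0.25 for Omp, values that the choice of spots bears on. The log2 difference was 0.27 ± 0.25 for Gng13, −0.16 ± 0.30 for Neurog1 and 0.49 ± 0.35 for Acsm4, each with an adjusted p of 0.9999 in edgeR. None of the 24 lineage factors, 8 sustentacular genes or 16 compound-modifying enzymes tested passed. Of 514 genes tested among those higher in the spots of every area, 144 (28.0%) lay above in both E15.5 areas and 44 (8.56%) below, beside 14.6% and 13.4% of all genes. None of them passed, and the median difference was 0.13 against −0.01 over all genes.

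The 10 genes with the smallest p are given as values, all with an adjusted p of 0.533. Their levels are CPM scaled by trimmed mean normalization. Fmo6 had 29.9 and 17.5 at E14.5 and 77.1 and 58.4 at E15.5, a log2 difference of 1.67 ± 0.33 (SE). Prdm12, a factor of pain-sensing neurons, had 6.65 and 7.69 and then 36.2 and 26.4 (2.06 ± 0.38). For these area sums the stages did not overlap in either gene, but for Fmo6 the sections did, with 50.5 CPM in section A of E14.5 and 22.1 CPM in section A of E15.5.

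The other eight had lower values at E15.5. Krt14 had 48.2 and 63.4 at E14.5 and 20.2 and 17.6 at E15.5 (−1.60 ± 0.30), Krt5 had 48.2 and 41.4 and then 16.4 and 13.5 (−1.56 ± 0.31), and Krt15 had 64.8 and 125.9 and then 38.9 and 23.2 (−1.70 ± 0.35). Nkx2-1 and Lhx6, factors of the ventral forebrain, had differences of −3.18 and −1.72, and Arhgef25, a guanine nucleotide exchange factor, of −2.28. Tnni1, a muscle troponin, had −1.76. Ttr, which the choroid plexus makes in large amounts, had 1.66 and 202.8 at E14.5 and 0.389 and 4.40 at E15.5, so its difference of −5.45 rested on 1 area. In the spots, 5 of 6 muscle genes and 5 of 11 basal genes had both E15.5 values under the E14.5 values, beside 13.4% of all genes. Other lists went the opposite way. Both E15.5 values lay above in 5 of 10 odorant response, 7 of 18 immature neuron, 4 of 8 sustentacular, and 5 of 10 forebrain and bulb genes. Those below in these lists numbered 1, 2, 2 and 0, and the share above over all genes was 14.6%.

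The stage difference was also set against that of the other spots, in a model with the area as a block over 14140 genes. No gene passed an adjusted p of 0.1 (0%), 1772 had an unadjusted p under 0.05 (12.5%), and DESeq2 called 107. Without an area, 0, 62, 757 and 138 genes passed, in the order of the areas, and with the replicate number as a block 2012 passed, 1218 with a positive and 794 with a negative difference. The 10 smallest p all came with an adjusted p of 0.128, and they belonged to skin, muscle, choroid plexus or brain. Krt1, of differentiated skin, was 0.275 and 0.217 times the level of other spots at E14.5 and 0.0514 and 0.0444 times at E15.5 (log2 −2.24 ± 0.26), while its level in the other spots went from 42.5 and 82.5 to 161 and 154 CPM. Gad2, of inhibitory neurons, was 0.477 and 0.531 times the level of other spots at E14.5 and 1.14 and 1.33 times at E15.5, with 140, 112, 178 and 114 CPM in the spots. Krt15, Krt14, Krt77, Lgals7, Myl1 and Tnnc2 had negative differences, as had Ttr, and Tmem130 had a positive one. Arhgef25 had a difference of −0.03 ± 0.18 here.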

How the data were processed

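The deposited files hold unnormalized UMI counts for each gene in each spot, and spot positions, made by the authors with Space Ranger 1.3.1 (replicate 1 areas) or 2.0.0 (the others). The submitters' processing notes name mm10, and the probe set is not given in the sources used here. The files list 19465 genes, 22 of which share a symbol with another gene, and genes were matched on their identifiers. Positions of genes came from GENCODE M21 (GRCm38).

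Spots flagged as tissue with at least 2000 UMIs entered. No doublet caller was run. The arrays reuse barcodes (1987 of 3046 occur in more than 1 area), so a spot was identified by area and barcode. UMIs were summed over olfactory epithelium spots and over other spots of each area. Sections were connected groups of at least 100 spots. Where an area had fewer groups than replicates, the largest group was cut by k-means clustering of the spot positions. Folds against other spots were not tested, because the rule used the same contrast. The stage test, of 2 areas per stage, was the quasi-likelihood test of edgeR 4.0.16 (R 4.3.3) on TMM-scaled sums after its default low-count filter. It used p-values adjusted by Benjamini-Hochberg, took 0.1 as threshold and was tested on simulated data. The second model had stage, spot class, their interaction and the area as a block. DESeq2 1.42.0 was an alternative. The spots and gene lists were chosen with earlier results of these data known. Named were the rule genes, list genes, the 25 genes with the largest lowest fold (at least 50 UMIs in the spots and 1 in every area), the 10 smallest p of each stage test, and for each receptor family the members with most UMIs. Some genes of these lists are not reported here.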

Additional observations from a re-analysis of the deposited data

Results flagged for a closer look

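The summed level of the 20 olfactory axon guidance and sorting genes in olfactory epithelium spots, divided by that of other spots, was 0.852 and 0.998 at E14.5 but 1.09 and 1.27 at E15.5, on opposite sides of equality at the 2 stages. This difference was not tested. The sums themselves were 1935, 1754, 2057 and 1739 CPM in the olfactory epithelium spots, where the stages overlapped, and 2269.5, 1758, 1884 and 1371 CPM in other spots. The summed forebrain and olfactory bulb genes moved in the same order, at 0.206, 0.389, 0.448 and 0.967 times the level of other spots, and their part in the result was not tested.

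Among sections of E14.5, which number 4 with replicate 1, the highest value lay far from the other 3 for 2 genes. Olfr94 was at 31.7 CPM in replicate 1, where it had 19 UMIs, against 3.84 to 6.18 CPM in sections A, B and C. Nhlh1 was at 375 CPM in section A against 247 to 258 CPM. Such a gap turns up by chance in about 1 of 20 groups, and 46 groups of sections were examined. The library of replicate 1 was the shallowest, and the part of its depth in the Olfr94 value was not tested. Genes of the rule were not examined, since their values chose the spots.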

How the results depend on the processing

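The stage test among olfactory epithelium spots called 0 genes with a threshold of 0.05, without TMM, with at least 10 UMIs in every area, with 100 or 400 spots, with 50 spots per area, with spots over 5000 UMIs and with thinned sums. It called 1 gene with DESeq2, 35 with no filter on low counts, 1 with sections as samples and 23, 10, 8 and 30 without each area in turn. Relative to the other spots it called 107 genes with DESeq2, 562 with no filter, 194 with the 100 highest spots, 47 with thinned sums and 0, 62, 757 and 138 without each area in turn. With 2 pairs of areas, replicate numbers were not taken to pair the samples (correlation of deviations −0.02), and the replicate block gave 18 calls among the spots, 4 higher and 14 lower at E15.5, and, in an alternative added after seeing the data, 2012 relative to other spots. For the genes named from the stage tests, 1 of 310 alternative values changed sign, the difference of Ttr at 0.62 without E14.5 replicates 2, 3 and 4. Whether a gene passed the threshold changed more often than its sign. Why these counts moved was not tested.

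Genes higher and lower in every area numbered 920 and 984 at 1.5-fold and 311 and 430 at 3-fold, and 435 were lower with the 400 highest spots. Scoring at 2000 UMIs per spot, with tied spots taken in the order of the areas, gave 386 higher and 368 lower genes. Of the 386, 370 were among the 568, and the neighbour share was 34.9%. That share was 47.5% for the 100 highest spots, 63.4% for 50 spots per area, 63.1% without Gfy in the score, 61.8% without Ugt2a1, and 67.1 to 70.5% without an area. The share of spots with an Olfr UMI was 97.5% unthinned and 66.3% at 5000 UMIs. Depth limits genes with few UMIs, above all in E14.5 replicate 1.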
